A study of Mus musculus with 10 samples.

Results

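A small fraction of mouse embryonic stem cells (ESCs) at any time expresses genes that the embryo uses at the two-cell stage, and 9 rows of the deposited expression table that carry the symbols of such genes (Zscan4a, Zscan4b, Zscan4c, Zscan4d, Zscan4e, Zscan4f, Tcstv1, Tcstv3 and Zfp352) were followed across all samples, of 36066 genes in the table. The members were chosen by symbol, and all 9 symbols were found. The table holds 10 RNA-seq libraries in 5 groups with 2 replicates each, on the C57BL6 strain: ESCs from a female line, parthenogenetic ESCs (pESCs, from embryos that developed without fertilization and hold only a maternal genome), PGC-like cells made from each (ESC-PGCLCs and pESC-PGCLCs), and primordial germ cells (PGCs) from embryos, for which the labels give no embryonic day. The lines carried a β-Actin-GFP transgene and were kept on mitomycin C-treated fibroblast feeders with serum and LIF, and then in t2iL medium (LIF with kinase inhibitors) before induction. PGCLCs were made through epiblast-like cells (activin A, bFGF and KSR) and then with BMP4 at 500 ng/ml, SCF, EGF and LIF for 4 days, and were sorted as SSEA1 and CD61 double-positive cells. PGCs were sorted from dissected gonads on SSEA1 and CD61 by flow cytometry or on SSEA1 alone with magnetic beads, and which was used for these libraries is not given in the sources used here.

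Zscan4 genes encode proteins with a SCAN domain and zinc fingers. They stand in a tandem array on chromosome 7, are used at the two-cell stage, and in ESC cultures mark rare cells that pass through a two-cell-like state, in which telomeres lengthen. Tcstv1 and Tcstv3 are two-cell-stage transcripts of a small family on chromosome 13, and Zfp352 encodes a zinc finger protein of the same stage. The transcription factor Dux switches this group of genes on, DPPA2 and DPPA4 act upstream of it, and chromatin proteins such as TRIM28, SETDB1, the CAF-1 subunits and KDM1A keep it silent in most ESCs.

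In GENCODE M21 (GRCm38), the 6 Zscan4 members and the rows Zscan4-ps1, Zscan4-ps2 and Zscan4-ps3 lie within 820 kb of chromosome 7. Zscan4a (chr7:10794242-10799057, minus strand) is annotated as an unprocessed pseudogene, and Zscan4b (chr7:10900740-10905050, minus), Zscan4c (chr7:11005745-11010547, plus), Zscan4d (chr7:11161374-11166159, minus), Zscan4e (chr7:11306378-11310682, minus) and Zscan4f (chr7:11397915-11402318, plus) are annotated as protein-coding. Tcstv1 (chr13:119893388-119894785, minus), Tcstv3 (chr13:120316878-120318178, plus) and Zfp352 (chr4:90218820-90225702, plus) are protein-coding genes as well. The transcripts of the 6 Zscan4 members were 96.6% to 99.7% identical in pairs, with the highest identity between Zscan4b and Zscan4e. Of the 100-base stretches of a member's transcripts, 29.6% (Zscan4d) and 39.1% (Zscan4a) to 81.5% (Zscan4e) also occurred in another Zscan4 row, so that most stretches of Zscan4b, Zscan4c, Zscan4e and Zscan4f match a relative as well. Tcstv1 and Tcstv3 shared 3.58% and 7.35% of their stretches with each other, and Zfp352 shared 0 with any member. How reads with several matches were handled is not given in the sources used here, and for this reason the sum of the 6 Zscan4 rows is given beside the single rows. Differences between the rows are shown by a window of 45 bases from 1 exon (GENCODE M21, GRCm38). It covers bases 612 to 656 of the 1518 coding bases of Zscan4c, and the matching bases of the pseudogene Zscan4a. The window is rich in differences and does not stand for the whole transcripts, which were 96.6% to 99.7% identical in pairs. The capitals mark the 8 positions at which the 6 rows differ.
Zscan4a, chr7:10795661-10795705, minus strand: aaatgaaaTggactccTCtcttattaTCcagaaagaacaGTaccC
Zscan4b, chr7:10901659-10901703, minus strand: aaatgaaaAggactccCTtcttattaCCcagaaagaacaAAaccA
Zscan4c, chr7:11009087-11009131, plus strand: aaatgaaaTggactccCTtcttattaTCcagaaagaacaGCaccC
Zscan4d, chr7:11162786-11162830, minus strand: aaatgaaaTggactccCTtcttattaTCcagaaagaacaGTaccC
Zscan4e, chr7:11307288-11307332, minus strand: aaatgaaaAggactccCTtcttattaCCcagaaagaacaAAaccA
Zscan4f, chr7:11401280-11401324, plus strand: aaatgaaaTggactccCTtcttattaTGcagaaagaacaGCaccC

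Zscan4b and Zscan4e had the same letters over this window, and the 6 rows held 5 different sequences. Upstream sequence of 5 members (Zscan4b, Zscan4c, Zscan4d, Zscan4f and Zfp352) was taken from RefSeq (GRCm38.p6). Over the 250 bases before the start site, the 4 Zscan4 promoters were 94.7% to 99.6% identical in pairs. The promoter of Zscan4c is shown for the family, and that of Zfp352 beside it because this gene was the only member with no more than 1 read in any library. The capitals mark TATAAA, which was searched on both strands.
Zscan4c promoter, chr7:11005495-11005744, plus strand: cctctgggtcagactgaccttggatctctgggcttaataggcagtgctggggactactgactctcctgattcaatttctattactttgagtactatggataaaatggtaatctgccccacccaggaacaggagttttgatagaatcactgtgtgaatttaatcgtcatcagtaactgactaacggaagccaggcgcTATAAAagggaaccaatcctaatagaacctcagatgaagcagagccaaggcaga
Zfp352 promoter, chr4:90218570-90218819, plus strand: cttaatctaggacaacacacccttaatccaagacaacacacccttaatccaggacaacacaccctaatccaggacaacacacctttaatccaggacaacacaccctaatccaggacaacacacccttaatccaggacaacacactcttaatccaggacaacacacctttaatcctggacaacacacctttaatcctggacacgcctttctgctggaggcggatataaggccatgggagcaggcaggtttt

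TATAAA occurred 1 time in each of the 4 Zscan4 promoters and 0 times in that of Zfp352, and 13.0% of all 27025 promoters of this length held it. The letters TGCACAC (a motif of ZSCAN4 itself) and GATTNAATC (a motif of Dux-type homeodomains) occurred in none of the 5 windows, against 3.49% and 0.259% of all promoters.

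The values are TPM, in which the authors divided each count by gene length and scaled each library to a total of 1000000, so that levels can be compared between genes. Whole numbers of reads could be recovered from them, and depth lay between 6779794 and 18572666 reads per library, the ESC-PGCLC libraries being the shallowest with 7697594 and 6779794 reads. In the 4 ESC and pESC libraries the summed TPM of 7 pluripotency markers was 1045 to 1585, against 137 to 220 in the 6 PGCLC and PGC libraries, and that of 8 germ cell markers was 404 to 927 against 5435 to 7887. Markers of other cells were also higher in the sorted germ cells: 10 fibroblast genes summed to 0.647 to 1.11 TPM in ESCs and pESCs and 4.56 to 13.2 TPM in PGCLCs and PGCs, and 9 gonadal somatic genes to 2.96 to 6.75 and 24.3 to 96.2 TPM, with Nr5a1 at 0 in all 4 stem cell libraries. Of the fibroblast genes 4 to 7 were above 0 in a stem cell library and 8 to 10 in a germ cell library, and Col1a2 was at 0 in both ESC libraries. Of the gonadal genes 4 to 7 and 9 were above 0. By limma (adjusted p under 0.05 and at least 2-fold), 6 of the 7 pluripotency markers were lower and 1 higher in ESC-PGCLCs than in ESCs. In pESC-PGCLCs 5 were lower and 0 higher than in pESCs. Of all genes 14.5% were lower and 15.3% higher in the first comparison, and 6.8% and 20.8% in the second. Pou5f1, which defines pluripotent and germ cells, was at 7.49 to 23.5 TPM in stem cell libraries and 0 to 3.14 TPM in germ cell libraries, with 0 in ESC-PGCLC replicate 2. The part of these markers in the results on the members was not tested. The paper calls the 2 libraries of a group biological replicates, but nothing says that they came from separate lines. The p-values rest on the spread between these samples and on the variance estimated across genes. Whether they hold a spread between lines is not known.

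The sum of the Zscan4 rows was detected in every ESC and pESC library and in no PGCLC or PGC library. It was 2.69 and 11.8 TPM in ESCs (7.24 ± 6.44, mean ± SD, n = 2), and 5.94 and 6.11 TPM in pESCs (6.02 ± 0.122). The reads behind these values were 54 and 310 in ESCs and 116 and 116 in pESCs, which by counting error alone gives exact Poisson 95% intervals of 2.02 to 3.51 and 10.5 to 13.2 TPM for the ESC libraries, and 4.91 to 7.12 and 5.05 to 7.33 TPM for the pESC libraries. ESC replicate 2 lay 4.38-fold above ESC replicate 1, and both pESC libraries lay between them. In the 4 stem cell libraries the 6 rows held 596 reads of 58250568, and in the 6 PGCLC and PGC libraries they held 0 of 73564291. A level of 0 allows up to 3 reads, which on the shortest Zscan4 row is 0.411 TPM at most in ESC-PGCLCs, 0.196 TPM in pESC-PGCLCs and 0.262 TPM in PGCs. Against these floors, the mean sum was at least 17.6-fold higher in ESCs than in ESC-PGCLCs, at least 30.7-fold higher in pESCs than in pESC-PGCLCs, and at least 27.6-fold (ESCs) and 23.0-fold (pESCs) higher than in PGCs. The ESC bounds rest on ESC replicate 2: from ESC replicate 1 alone they were 6.54-fold over ESC-PGCLCs and 10.3-fold over PGCs, whereas the lower pESC library still gave 30.2-fold and 22.6-fold. These samples are bulk RNA, in which fewer two-cell-like cells and less RNA per cell cannot be told apart. Floors and intervals cover counting error only.

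**Figure D1:**
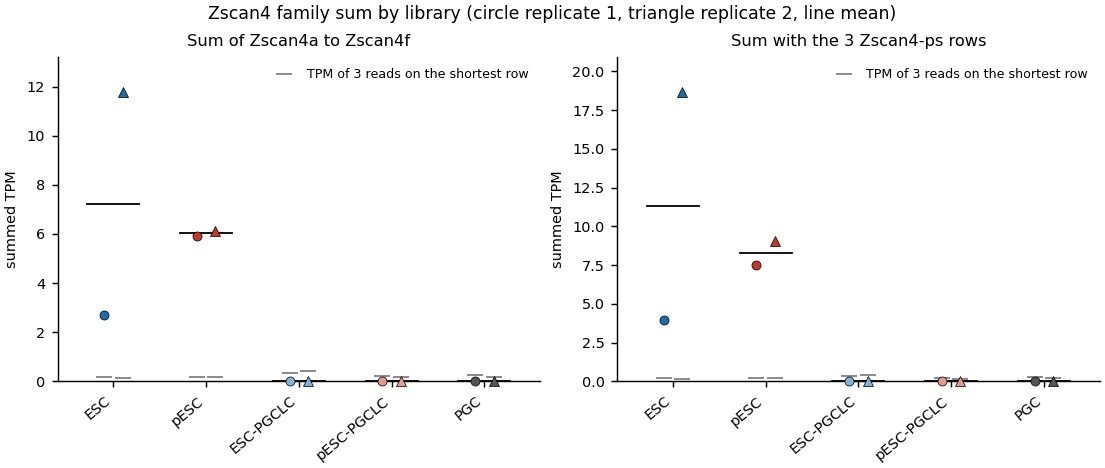
Summed TPM of Zscan4a to Zscan4f (left) and of these with the 3 Zscan4-ps rows (right) in each library by group. Points are libraries, black lines group means and grey dashes the TPM of 3 reads on the shortest row. The 2 ESC libraries stand apart at 2.69 and 11.8 TPM, the pESC libraries lie together at 5.94 and 6.11 TPM, and all PGCLC and PGC libraries are at 0.

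The rows of the family did not have equal TPM. They also differ in the share of 100-base stretches that occur in another Zscan4 row. It was 29.6% in Zscan4d, 39.1% in Zscan4a, 72.8% in Zscan4c, 76.3% in Zscan4b, 80.6% in Zscan4f and 81.5% in Zscan4e. The part of this in the levels of the rows was not tested, and a sum would not restore reads that had been dropped. Zscan4a was at 1.29 and 4.02 TPM in ESCs and at 1.95 and 2.02 TPM in pESCs, and held 32.8% to 47.8% of the sum in the 4 libraries. Zscan4d was at 0.191 and 4.07 TPM in ESCs and at 1.75 and 1.73 TPM in pESCs. It held 7.11% of the sum in ESC replicate 1 and 28.3% to 34.5% in the other 3 libraries, and was the row that set the ESC libraries farthest apart (4 and 110 reads). Zscan4c was at 0.477 and 1.63 TPM in ESCs and at 1.45 and 0.912 TPM in pESCs. Zscan4f was at 0.554 and 1.46 TPM in ESCs and at 0.407 and 1.06 TPM in pESCs, so that the ESC and pESC values of both rows overlapped. The other Zscan4 members were close to the limit of detection. Zscan4b was at 0.120, 0.327, 0.189 and 0.192 TPM in the same order (2, 7, 3 and 3 reads), and Zscan4e at 0.0605, 0.282, 0.190 and 0.193 TPM (1, 6, 3 and 3 reads). All 6 rows were listed at 0 in each of the 6 PGCLC and PGC libraries. The Zscan4-ps rows, which by GENCODE M21 are protein-coding despite their symbols, were present in the same 4 libraries. Zscan4-ps3 was at 0.572 and 3.58 TPM in ESCs, at 0.950 and 2.18 TPM in pESCs, and at 0 elsewhere. Zscan4-ps1 was at 0.215 and 1.42 TPM in ESCs and 0.452 and 0.286 TPM in pESCs, and Zscan4-ps2 at 0.477 and 1.88 TPM in ESCs and 0.150 and 0.456 TPM in pESCs, so that each of these rows was highest in ESC replicate 2. With these 3 rows added, the sum was 3.95 and 18.7 TPM in ESCs and 7.49 and 9.03 TPM in pESCs.

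The members outside the array were rarer. Tcstv1 was at 0 and 0.542 TPM in ESCs (0 and 9 reads) and at 1.95 and 0.413 TPM in pESCs (24 and 5 reads), and pESC replicate 1 lay above the other libraries. It was the only member with a read outside the stem cells, a single read (0.176 TPM) in ESC-PGCLC replicate 2. Tcstv3 was at 0.418 and 0.648 TPM in ESCs and at 0.730 and 0.592 TPM in pESCs (3 to 6 reads a library), so that the groups overlapped, and it was at 0 in all PGCLC and PGC libraries. Zfp352 was at 0 in 9 libraries and at 0.0507 TPM (1 read) in pESC replicate 2. Its level was therefore not detectable at this depth. Over all 9 members the stem cell libraries held 653 reads and the PGCLC and PGC libraries 1 read.

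**Figure D2:**
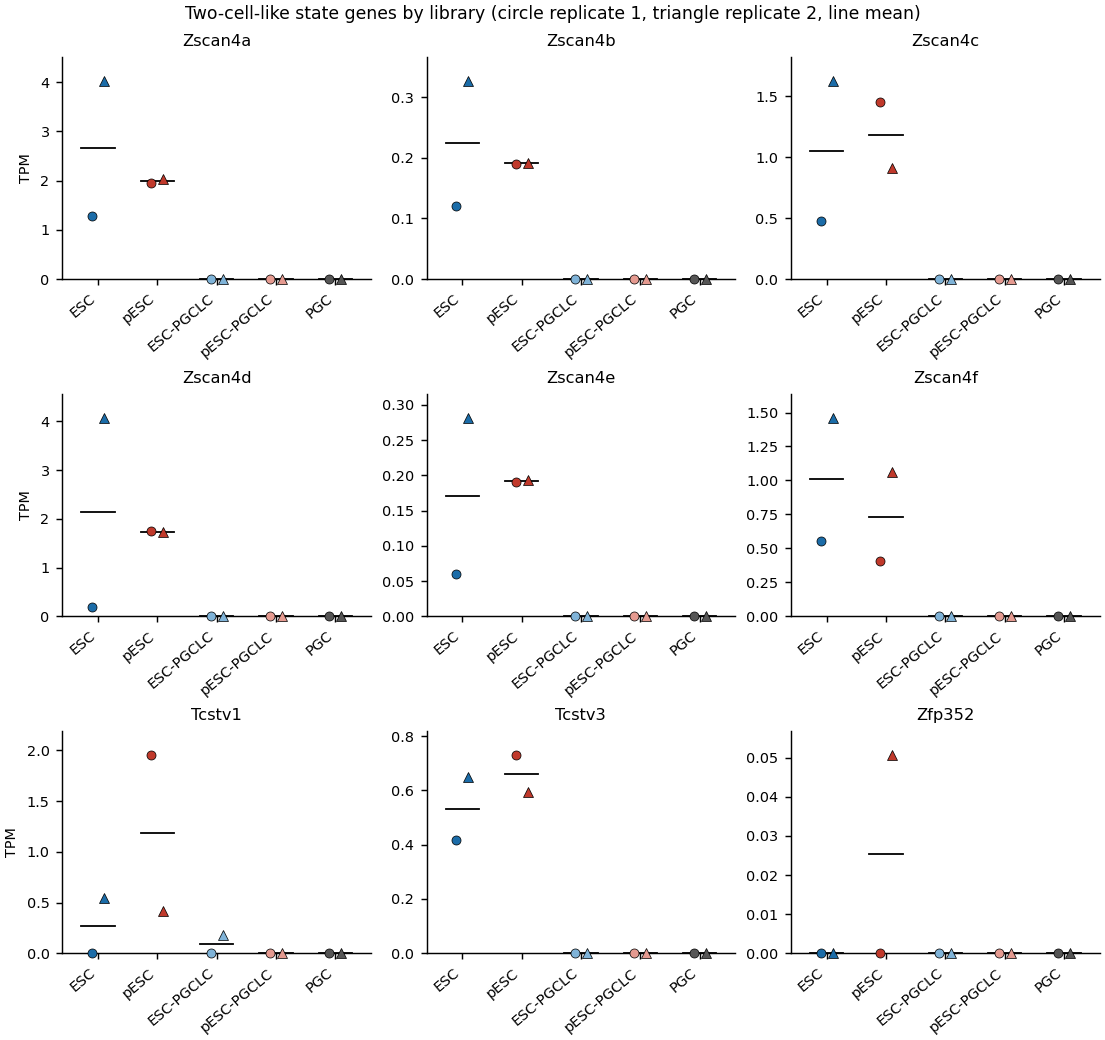
TPM of each of the 9 members in each library by group, with circles for replicate 1, triangles for replicate 2 and lines for group means; the vertical scales differ between genes. Zscan4a and Zscan4d reach about 4 TPM in ESC replicate 2, Zfp352 has 1 read in a single pESC library, and apart from 1 read on Tcstv1 all values of PGCLCs and PGCs are 0.

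A value of 0 throughout the PGCLC and PGC libraries was not general in the table. Of 18836 genes above 0 in all 4 ESC and pESC libraries, 238 (1.26%) were at 0 in all 6 PGCLC and PGC libraries, and the number was 86 of 12504 (0.688%) where the stem cell libraries averaged 1 TPM or more. Neither share was drawn from genes matched to the members in level. Of the members, 7 were above 0 in all 4 stem cell libraries (the Zscan4 rows and Tcstv3), and all 7 were at 0 in the other 6. The Zscan4 rows share sequence and are not separate cases. For Zscan4b, Zscan4e and Tcstv3 the ESC means lay under the 3-read floors of ESC-PGCLCs and PGCs, so that a 0 there shows little. In the other direction, 461 of 18301 genes (2.52%) above 0 in all PGCLC and PGC libraries were at 0 in all stem cell libraries. Of 790 values of 79 ribosomal protein genes, 1 was 0. Genes this abundant cannot show whether rows as low as the members would be missed, and this was not tested. The PGCLC and PGC libraries had 15331 to 16574 protein-coding rows and 1674 to 2269 processed pseudogene rows above 0, and the stem cell libraries 14940 to 15565 and 2226 to 2467.

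Differentiation to PGCLCs was tested with limma on log2(TPM + 1) over the 27259 genes that reached 0.1 TPM in 2 or more libraries, 8 of the members among them (all but Zfp352). Called genes had a Benjamini-Hochberg adjusted p below 0.05 together with a 2-fold or larger change. These 8 rows, and the sum of the Zscan4 rows, passed the filter through the ESC and pESC libraries alone. Their differences could therefore hardly be other than negative. The counts of calls among the rows and the p-values of the sum are a description. The fitted differences of rows this low depend on the pseudocount of 1 TPM and are no bounds. The sum of the Zscan4 rows fell in both lineages: the fitted log2 difference was -2.78 (SE 0.476, 95% interval -3.88 to -1.68, adjusted p = 0.00184) for ESC-PGCLCs against ESCs and -2.81 (SE 0.476, -3.91 to -1.71, adjusted p = 0.00191) for pESC-PGCLCs against pESCs, with all 4 stem cell libraries above all 4 PGCLC libraries. The smallest p of an exact permutation test of 2 libraries against 2 is 0.333 (two-sided), and these calls rest on the variance estimated across genes. With the Zscan4-ps rows the differences were -3.30 and -3.21. Fitted on the compared groups alone, the 95% intervals of the sum were -4.49 to -1.07 and -3.25 to -2.38.

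Of the single members, Zscan4a was called lower in ESC-PGCLCs than in ESCs, with a log2 difference of -1.76 (SE 0.311, adjusted p = 0.00215), which is 1 call of 8, where 14.5% of all genes were called lower in that comparison. In ESC-PGCLCs 5 members (Zscan4a, Zscan4b, Zscan4c, Zscan4f and Tcstv3) passed the adjusted p alone, against 21.6% of all genes lower by this rule. The differences of the other 7 tested members ran from -1.30 (Zscan4d, adjusted p = 0.0854) to -0.20 (Tcstv1, adjusted p = 0.672). The number called rested on ESC replicate 1: without it 4 members were called, Zscan4c, Zscan4d and Zscan4f besides Zscan4a. For pESC-PGCLCs against pESCs 3 of 8 members were called lower, Zscan4a (-1.58, SE 0.311, adjusted p = 0.00403), Zscan4c (-1.11, SE 0.248, adjusted p = 0.00729) and Tcstv1 (-1.03, SE 0.329, adjusted p = 0.0346), where 6.8% of all genes were called lower and 20.8% higher (18.4% and 8.36% with median centring, 11.1% and 12.1% with quantile normalization). Here 5 members (these 3, Zscan4f and Tcstv3) passed the adjusted p alone, against 10.9% of all genes. Zscan4c was not called without pESC replicate 1, and Zscan4d was called as well without either ESC library. Tcstv1 was no longer called when pESC replicate 1, either pESC-PGCLC library or either PGC library was left out. Against 3 reads on the row itself, Zscan4a was at least 8.21-fold and Zscan4d at least 6.57-fold higher in ESCs than in ESC-PGCLCs, and in pESCs the bounds were 12.8-fold and 11.2-fold. From ESC replicate 1 alone the bound of Zscan4a was 3.98-fold, and for Zscan4d there was none, since its 0.191 TPM lay under the floor of 0.324 TPM. For Zscan4b and Zscan4e the group means of ESCs and pESCs were themselves under the floor of the PGCLC groups, so that no fold can be given.

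The origin of the cells made no detectable difference. The fitted log2 difference of the Zscan4 sum between pESCs and ESCs was 0.03 (SE 0.476, adjusted p = 1), and its 95% interval of -1.07 to 1.13 allows 0.476-fold to 2.19-fold. This interval shares its variance with the 3 germ cell groups, where every library was at 0. Fitted on the compared groups alone, it was -1.42 to 1.48 (SE 0.580), and that of the interaction given below was -1.76 to 1.70. No member of 8 was called between pESCs and ESCs by limma (0 also at an unadjusted p under 0.05, and 0 called by voom), where 0.781% of all genes were called. The order of the 2 groups depends on which ESC library is used, since without ESC replicate 1 the difference of the sum was -0.87 and without ESC replicate 2 it was 0.93. Without ESC replicate 2, Zscan4d was called higher in pESCs, and without pESC replicate 2, Tcstv1 was. All members but Zfp352, which was at 0 in both, were higher in ESC replicate 2 than in ESC replicate 1 (8 of 9), whereas in pESCs 5 were higher in replicate 2 and 4 in replicate 1. The interaction of the sum is no second result. Both PGCLC groups were at 0, so in this fit it is the difference between pESCs and ESCs with its sign turned. By limma it was -0.03 (SE 0.673, 95% interval -1.59 to 1.53, adjusted p = 0.988), and -0.93 without ESC replicate 2. The same holds for each tested member but Tcstv1. In the interaction 0 of 8 members were called by limma (0 also at an unadjusted p under 0.05, and 0 called by voom), against 19.1% of all genes. Among the germ cells there was nothing to compare but the single read on Tcstv1. No member was called between pESC-PGCLCs and ESC-PGCLCs (13.4% of all genes called), between PGCs and ESC-PGCLCs (13.8%) or between PGCs and pESC-PGCLCs (3.67%), again with 0 at an unadjusted p under 0.05 and 0 by voom. In order of level the groups therefore stood with ESCs and pESCs together and the 3 germ cell groups at 0.

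Most other genes of the two-cell-like state, the Zscan4-ps rows among them, were also listed at 0 in the germ cells. Of 54 such genes listed, 47 were in the table, 30 of them had reads in ESCs or pESCs and were at 0 in all 6 PGCLC and PGC libraries, and 1 was at 0 everywhere. The share of all genes by this rule is not given here. Some of the 30 were too low for a 0 to show a fall. Tdpoz3, for example, averaged 0.0383 TPM in ESCs and 0 in pESCs, under the 3-read floors of 0.671 TPM in ESC-PGCLCs, 0.321 TPM in pESC-PGCLCs and 0.428 TPM in PGCs. In ESC-PGCLCs 8 of the 31 tested were called lower and 0 higher, against 14.5% and 15.3% of all genes, and in pESC-PGCLCs 12 were lower and 1 higher, against 6.8% and 20.8%. Tested genes at 0 in every germ cell library, such as Gm2075 and Gm2056, passed the filter through the ESC and pESC libraries alone. Their differences could hardly be other than negative, so their adjusted p-values and the counts of lower calls are a description. The counts depended on single libraries and on the setting. The 8 lower became 4 without ESC replicate 2 or ESC-PGCLC replicate 2, 5 without ESC-PGCLC replicate 1, 11 without ESC replicate 1, 15 with a pseudocount of 0.1 and 12 by voom, and the 12 lower became 22 with that pseudocount, 24 with median centring and 25 by voom. Between pESCs and ESCs 0 of 31 were called by limma and by voom, but 7 were called higher in pESCs without pESC replicate 2. The largest falls were those of predicted genes of the two-cell-like signature. Gm5662 was at 6.84 and 6.31 TPM in ESCs and at 22.3 and 9.09 TPM in pESCs, and fell by 2.83 and 3.94 on the log2 scale (adjusted p = 0.000302 and 7.89e-05). It had 0.134 TPM in ESC-PGCLC replicate 2 and 0.0602 TPM in PGC replicate 2, and 0 in the other germ cell libraries. Gm5039 was at 6.67 and 4.26 TPM in ESCs and at 15.1 and 7.89 TPM in pESCs and fell by 2.59 and 3.58 (adjusted p = 0.000234 and 6.59e-05), with 0.113 TPM in ESC-PGCLC replicate 1 and 0.0596 TPM in PGC replicate 2. Gm2075 was at 3.24 and 5.80 TPM in ESCs and at 12.0 and 3.45 TPM in pESCs, was at 0 in all germ cell libraries, and fell by 2.43 and 2.93 (adjusted p = 0.00283 and 0.00119). Gm2016 fell as well (log2 differences of -1.75 and -2.90, adjusted p = 0.00694 and 0.000594), Gm2056 by 1.66 in ESC-PGCLCs (adjusted p = 0.0302), and Gm2022 by 2.53 in pESC-PGCLCs (adjusted p = 0.00821). The calls in ESC-PGCLCs were lost for Gm2016 without ESC replicate 1 and for Gm2056 without any 1 of the ESC or ESC-PGCLC libraries. In these 6 genes pESC replicate 1 was the highest library, as for Tcstv1, while ESC replicate 2 was the highest for the Zscan4 sum. Arg2, a mitochondrial arginase that was listed with them, went the other way: it was at 15.7 and 11.2 TPM in ESCs and 7.09 and 8.40 TPM in pESCs, and at 24.9 to 53.3 TPM in the PGCLC and PGC libraries, and rose by 2.26 in pESC-PGCLCs (adjusted p = 9.13e-05).

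**Figure D3:**
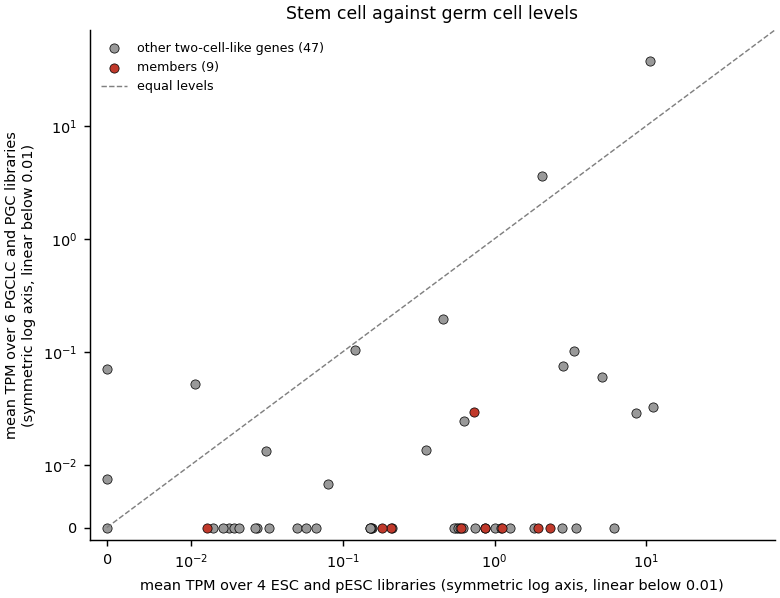
Mean TPM over the 4 ESC and pESC libraries against the mean over the 6 PGCLC and PGC libraries for the 9 members (red) and the 47 other two-cell-like genes in the table (grey), on symmetric log axes that are linear below 0.01 TPM; the dashed line marks equal levels. Most points lie on the lower axis at 0, and the point at the top right, above the line, is Arg2.

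Of the genes upstream, Duxf3 (the Dux row of the table, chr10:58229979-58232675 on the minus strand) was at 0.0402 and 0.0312 TPM in ESCs and at 0 in the other 8 libraries, which is too low for the filter. Dppa2 and Dppa4 were abundant in every group. Dppa2 was at 56.5 and 50.1 TPM in ESCs, 37.2 and 46.6 in pESCs, 25.9 and 36.1 in ESC-PGCLCs, 45.3 and 46.8 in pESC-PGCLCs and 54.9 and 43.2 in PGCs, and it was called in neither differentiation comparison. Its log2 differences were -0.78 (adjusted p = 0.0146, under 2-fold) in ESC-PGCLCs and 0.14 (adjusted p = 0.617) in pESC-PGCLCs, where the sign turned under both other scalings. Dppa4 was at 107 and 95.8 TPM in ESCs, 86.9 and 72.7 in pESCs, 78.9 and 57.8 in ESC-PGCLCs, 175 and 148 in pESC-PGCLCs and 146 and 112 in PGCs. It rose by 1.01 in pESC-PGCLCs (adjusted p = 0.00500; not called without pESC replicate 2 or pESC-PGCLC replicate 1, or with either other scaling, where it was 0.76 and 0.28) and differed by -0.58 in ESC-PGCLCs (adjusted p = 0.0513). Zscan4 reads were 0 in the pESC-PGCLC and PGC libraries, which had the highest Dppa4, and also in ESC-PGCLCs, with Dppa4 at 78.9 and 57.8 TPM. A relation between the levels of Dppa4 and Zscan4 was not tested. Of the 5 activators, 1 was called higher and 1 lower in ESC-PGCLCs, and 3 and 1 in pESC-PGCLCs, where the other scalings gave 0 and 1 (all genes: 15.3% and 14.5%, and 20.8% and 6.8%). Nelfa was called higher in both kinds of PGCLC (1.37 and 1.57; adjusted p = 0.00453 and 0.00244) and Tbx3 lower in both (-1.55 and -1.50; adjusted p = 6.74e-05 and 0.000106), and Dcaf11 was higher in pESC-PGCLCs (1.15; adjusted p = 0.00386), at 0.99 and not called without pESC-PGCLC replicate 2.

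**Figure D4:**
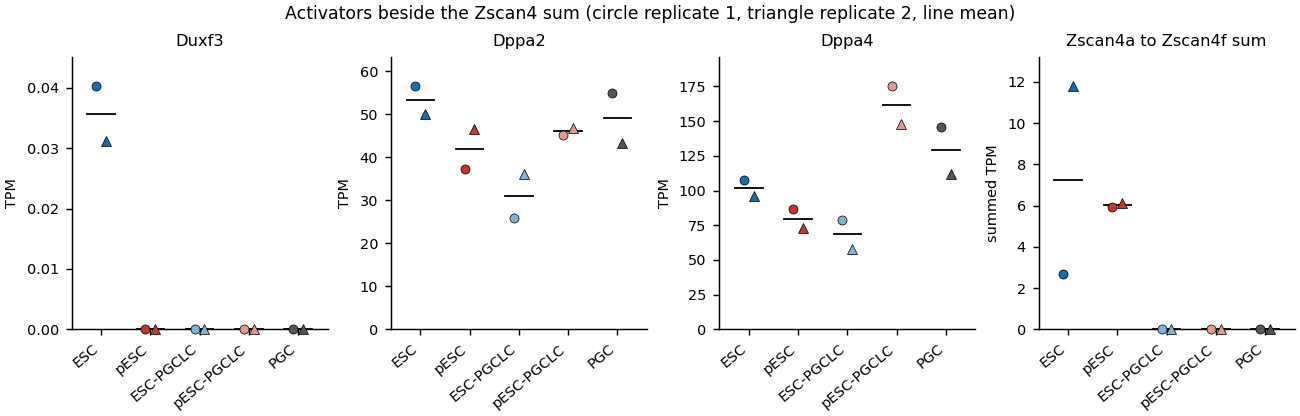
TPM of Duxf3, Dppa2 and Dppa4 and the summed TPM of Zscan4a to Zscan4f in each library by group (circles replicate 1, triangles replicate 2, lines means). Dppa2 and Dppa4 are present in all 10 libraries, with Dppa4 highest at 175 TPM in a pESC-PGCLC library, whereas Duxf3 and Zscan4 are at 0 in all PGCLC and PGC libraries.

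The genes listed as repressors of the state were all expressed in all libraries and moved in both directions. In ESC-PGCLCs 8 of 22 were called higher and 5 lower, and in pESC-PGCLCs 11 were higher and 2 lower, with medians of 0.29 and 1.13. Over all genes tested 15.3% were called higher and 14.5% lower in the first comparison and 20.8% and 6.8% in the second, with medians of 0.05 and 0.22. With each library centred on the median of genes present everywhere, the pESC-PGCLC counts were 4 higher and 3 lower. That centring moves the median of all genes by -0.73 in this comparison, and quantile normalization moves it by -0.20. The histone deacetylase gene Hdac1 was at 190 and 161 TPM in ESCs, 85.5 and 110 in pESCs, and between 9.74 and 15.8 TPM in the PGCLC and PGC libraries, and fell by 3.91 and 2.61 (adjusted p = 2.85e-06 and 1.93e-05). Uhrf1, which brings DNMT1 to replicated DNA, fell by 2.21 and 1.70 (adjusted p = 0.000213 and 0.000968). Chaf1b, a subunit of the histone chaperone CAF-1, fell by 3.14 in ESC-PGCLCs (adjusted p = 5.11e-05) and differed by -0.58 in pESC-PGCLCs (adjusted p = 0.118). Zmym2, at 3.27 to 5.37 TPM in ESCs and pESCs and 29.8 to 44.4 TPM in the germ cell libraries, rose by 2.54 and 2.57 (adjusted p = 3.51e-05 and 5.06e-05). Smchd1, which keeps repeat arrays and the inactive X silent, rose by 2.26 and 2.02 (adjusted p = 6.78e-05 and 0.000154). Setdb1, a histone H3 lysine 9 methyltransferase, rose by 1.44 and 1.85 (adjusted p = 0.000132 and 5.68e-05), and Dnmt1 by 1.16 and 1.98 (adjusted p = 0.00278 and 0.000213). Trim28, which silences retroelements through KRAB zinc finger proteins, was at 72.8 and 72.9 TPM in ESCs, 40.3 and 52.4 in pESCs, 40.8 and 34.4 in ESC-PGCLCs, 112 and 118 in pESC-PGCLCs and 158 and 115 in PGCs. Of 13 telomere genes, 1 was called higher and 2 lower in ESC-PGCLCs and 0 and 2 in pESC-PGCLCs, beside the same shares of all genes as for the repressors. Acd, which encodes the shelterin protein TPP1, fell by 2.31 in ESC-PGCLCs (adjusted p = 2.42e-05), and Dkc1, a subunit of telomerase, by 1.24 and 1.00 (adjusted p = 0.00759 and 0.0208), calls that were lost without ESC-PGCLC replicate 1 and without pESC replicate 2 or either pESC-PGCLC library. Terf2ip, which encodes the shelterin protein RAP1, rose by 2.10 in ESC-PGCLCs (adjusted p = 0.000233), and Terc, the telomerase RNA, fell by 1.17 in pESC-PGCLCs (adjusted p = 0.0103), a call lost without pESC replicate 1 (-0.90, adjusted p = 0.0698).

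**Figure D5:**
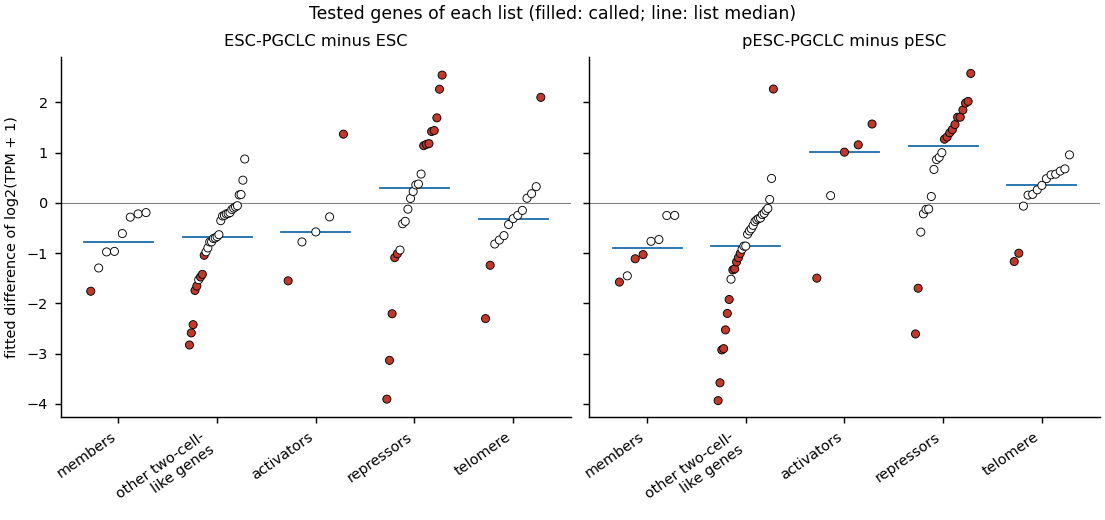
Fitted differences of log2(TPM + 1) for the tested genes of each list, for ESC-PGCLCs against ESCs (left) and pESC-PGCLCs against pESCs (right). Filled points were called and blue lines are list medians; members and other two-cell-like genes lie mostly below 0, from -3.94 for Gm5662 to 2.26 for Arg2 on the right, while repressors spread on both sides.

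The genes whose log2(TPM + 1) followed the Zscan4 sum most closely over the 10 libraries were, in order, Gm13655, Gm47336, C330002G04Rik, B020031M17Rik, Gm13662, Gm37596, Cabs1, Gm40848, Defa30 and 9530053A07Rik, with Pearson's r from 0.993 to 0.980 among 18023 tested genes that averaged 1 TPM or more in some group. All 10 had their 4 highest values in the ESC and pESC libraries and at most 0.155 TPM in any germ cell library, and the points share that split. Gm13655, for example, was at 0.583 and 1.13 TPM in ESCs and 0.916 and 1.08 TPM in pESCs, and Defa30, a Paneth cell defensin, at 8.45, 14.8, 8.58 and 11.6 TPM in the same order. Both were at 0 in all PGCLC and PGC libraries.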

How the data were processed

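RNA-seq of 10 libraries, 2 replicates for each of 5 groups, was used. Hisat2 (mm10) and Feature-counts were the authors' aligner and counter, and TPM per gene symbol was deposited; the submitters' processing notes also name Bowtie2, RSEM, R 3.4.2 and DESeq2. The study's methods give Smart-seq2 on sorted cells and the labels another library kit. All value columns were used. TPM times GENCODE M21 exon length gave whole reads (within 0.01, below 200 reads) for 95.2% to 96.1% of values, from which depth and floors of 3 reads were taken; all reads of the members came out whole.

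Values were transformed as log2(TPM + 1). Group means were fitted by limma 3.58.1 (R 4.3.3), with a variance trend, to 27259 genes reaching 0.1 TPM in 2 or more libraries (5 residual and 2.81 prior degrees of freedom). The 7 comparisons were adjusted by Benjamini-Hochberg over all genes, and genes were called at an adjusted p under 0.05 and at least 2-fold. The Zscan4 sum replaced its 6 rows in a second fit. Members are named always; of the lists of other two-cell-like genes, activators, repressors and telomere genes, the rule names up to 5 called genes with the largest difference per comparison, with Duxf3, Dppa2 and Dppa4, and the 10 genes most like the Zscan4 sum by Pearson's r. Genes of these lists called only among the germ cell groups, where no member had a level to compare, are left out. Arg2 in pESC-PGCLCs was named after its value was seen. Members and lists were chosen with earlier results of these data known. Other settings tried were no filter or one of 1 TPM, a pseudocount of 0.1, only the groups compared, quantile normalization, median centring over 9024 genes (1 TPM or more throughout), a replicate block and leaving out each library. A voom fit to recovered reads (10 or more per gene) and a sum with the 3 Zscan4-ps rows were chosen after seeing the data. The fit was tested on simulated data. Figures were drawn with matplotlib 3.10.9 in Python 3.11.15.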

Additional observations from a re-analysis of the deposited data

Results flagged for a closer look

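The log2 effect of differentiation differed between pESC and ESC cells by the interaction term of limma (Benjamini-Hochberg adjusted p under 0.05 and at least 2-fold) for 12 named genes of the activator, repressor, telomere and two-cell-like lists, and for no member. Called were 2 of 5 activators, 6 of 22 repressors and 1 of 31 other two-cell-like genes. Of 13 telomere genes, 3 were positive and 1 negative, and 19.1% of all genes were called. At most 5 called genes of a list are named, and these counts are no result about the lists. The difference of effects was positive, meaning a change to PGCLCs higher on the pESC side, for the activators Dppa4 (1.59) and Dcaf11 (1.43), for the repressors Chaf1b (2.55), Trim28 (2.25), Hdac1 (1.30), Kdm1a (1.18) and Chaf1a (1.13), for the telomere genes Acd (2.56), Tinf2 (1.22) and Terf2 (1.20), and for Arg2 (1.39). It was negative for the telomere gene Terf2ip (-1.53). All 12 kept their sign under quantile normalization and under median centring, and 4 of them (Acd, Chaf1b, Terf2ip and Trim28) were still called under each. By voom on recovered reads 11 were called. Leaving out single libraries ended the call of Chaf1a in 8 of 10 cases (adjusted p up to 0.126, all but those without ESC replicate 2 or pESC replicate 2), of Terf2ip without ESC replicate 1 (-1.44, adjusted p = 0.0685) or pESC-PGCLC replicate 1, of Dcaf11 without ESC replicate 1 or pESC-PGCLC replicate 2, and of Terf2 without ESC replicate 2 or pESC-PGCLC replicate 1. Of the 31 other two-cell-like genes tested, Arg2 was the 1 called and 0 were called lower, but with median centring 0 were called higher and 10 lower, and without pESC replicate 2 the counts were 1 and 8. Across all genes 19.1% were called in this comparison (15.5% positive and 3.53% negative, and 6.34% and 14.9% with median centring).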

How the results depend on the processing

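The Zscan4 sum was lower in both kinds of PGCLC under every alternative run. Its values of 0 in every PGCLC library left hardly any other sign possible, so that the runs describe only the size. When single libraries were left out it was at -1.88 to -3.68 for ESC-PGCLCs and -2.79 to -2.83 for pESC-PGCLCs. It was at -5.85 and -5.94 with a pseudocount of 0.1, and at -6.91 and -8.19 by voom. The members called in ESC-PGCLCs rose from 1 to 7 with a pseudocount of 0.1, 3 with quantile normalization and 4 by voom (1 to 4 without single libraries), and in pESC-PGCLCs from 3 to 8, 5 and 8, and to 6 with median centring (2 to 4 without single libraries). More of all genes were called lower under most of these settings, too: 20.1%, 15.2% and 20.6% against 14.5%, and 9.63%, 11.1%, 14.2% and 18.4% against 6.8%. For pESCs against ESCs and for the interaction, 0 to 1 member was called without single libraries, and median centring called 1 in the interaction (Tcstv1). The sum changed sign, with no call, with the Zscan4-ps rows (-0.10 for pESCs against ESCs, 0.10 for the interaction) and when libraries were left out (-0.87 to 0.93 and -0.93 to 0.87). In these runs the interaction of the sum is the difference between pESCs and ESCs with its sign turned. In the differentiation comparisons, named differences that changed sign were those of Tcstv1 in ESC-PGCLCs (-0.51 to 0.12 without single libraries) and Dppa2 in pESC-PGCLCs (-0.23 quantile, -0.59 median centring, -0.14 voom, -0.018 to 0.30 without single libraries). With median centring the uncalled difference of Acd in pESC-PGCLCs went from 0.26 to -0.47, and those of Zscan4a (-0.18 to 0.15), Zscan4b (-0.03 to 0.30) and Zscan4f (-0.20 to 0.13) between pESCs and ESCs turned as well; of 79 list genes, the sign changed under a scaling for 1 in ESC-PGCLCs, 14 in pESC-PGCLCs, 26 between pESCs and ESCs and 23 in the interaction. Beyond the alternatives' own construction, the cause of these changes was not tested. Replicate numbers did not pair the samples (correlations of same-numbered deviations -0.05 to 0.24 over 10 pairs, median 0.03). With the replicate block, 1 and 3 members were called, and the sum stayed at -2.78 and -2.81. A fit of the compared groups alone gave no value of the sum among germ cell groups, where every library was at 0, and median centring gave -0.61, -0.20 and -0.41 there (no call), from its shift alone. Depth limits Zfp352, Zscan4b, Zscan4e and Tcstv3, at 0 to 7 reads a library.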
